A study of Saccharomyces cerevisiae with 109 samples.

Results

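The 81 genes described here encode the proteins of the large subunit of the cytosolic ribosome in budding yeast, Saccharomyces cerevisiae. They were chosen by name out of the 6297 open reading frames on the arrays, as every gene called RPL followed by a number, together with RPP0, RPP1A, RPP1B, RPP2A and RPP2B, which encode the acidic stalk proteins. Of the 81 genes, 70 form 35 pairs of paralogs with names ending in A and B, and 11 have no partner. The large subunit joins amino acids into protein: its RNA forms the catalytic centre, and its proteins shape that centre, line the tunnel through which the growing chain leaves, bridge to the small subunit and form the stalk that recruits translation factors. In yeast these genes are among the most heavily transcribed in growing cells. Their RNA is known to fall together with that of the small-subunit genes when cells meet a stress, and the lysine deacetylase Rpd3p has been linked to that repression.

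Expression was measured on 109 arrays with 2 channels. Most arrays compared stressed with unstressed cells of the same strain. The exceptions are 3 arrays that compared unstressed rpd3Δ cells with unstressed wild-type cells, and the 14 arrays of relief from heat. The relief arrays followed cells grown at 37 °C after their return to 25 °C, so their changes are from the level at 37 °C. The values are log2 ratios, and -1 stands for a level cut by 50%. Outside these exceptions they are log2 expression changes of stressed over unstressed cells. A culture is measured in bulk, so less RNA per cell and fewer cells making it cannot be told apart.

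The strains exposed to 0.4 mM H2O2 for 30 min were rpd3Δ (3 arrays), pho23Δ (3), rco1Δ (3), ume6Δ (4), msn2Δ msn4Δ rpd3Δ (3), msn2Δ msn4Δ (3) and their parent BY4741 (8), which carries his3Δ1, leu2Δ0, met15Δ0 and ura3Δ0 and is the wild type here. Pho23p and Ume6p act with the large Rpd3 complex (Rpd3L), Rco1p belongs to the small complex (Rpd3S), and Msn2p and Msn4p are activators of stress genes. RMY491 cells, called H4KQ here, live on a plasmid histone H4 whose tail lysines at positions 5, 8, 12 and 16 are glutamine, and were compared with NSY429 cells (3 arrays each), which live on plasmid copies of normal H3 and H4. The rpd3Δ, pho23Δ, rco1Δ and wild-type cells were also followed over 10 to 60 min of H2O2. Cultures of rpd3Δ and wild-type cells were followed through heat shock (25 to 37 °C), NaCl (0.75 M in one label field, 0.7 M in another) and relief from heat (37 to 25 °C). Wild-type cells with 10 µM of the deacetylase inhibitor trichostatin A (TSA) or its vehicle DMSO, and rpd3Δ cells with an empty plasmid, RPD3 or the allele rpd3H150:151A, gave 1 array for each condition and time. The labels place the unstressed rpd3Δ reference of the second heat shock course at 30 °C, whereas that of wild type was at 25 °C. The second rpd3Δ course of relief from heat is titled as rpd3Δ but described as wild type in another label field, and the title was followed. The rpd3Δ strain grows more slowly than wild type, and each deletion was studied in 1 strain background.

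Between 4288 and 6115 genes were measured per array, and between 49 and 81 of the members (median 79). RPD3 was measured on only 13 of 30 arrays of rpd3Δ strains, against 35 of 35 wild-type arrays, and was at -2.57 on the only unstressed rpd3Δ over wild-type array where it had a value. UME6 was measured on 0 of 4 ume6Δ arrays, against 32 of 35 wild-type arrays. PHO23 was measured on 7 of 7 pho23Δ arrays, RCO1 on 4 of 7 rco1Δ arrays and MSN4 on 3 of 3 msn2Δ msn4Δ arrays, where both channels come from the same deletion strain. The 28 within-group pairs of arrays with opposite dyes had positive correlations over all genes, from 0.375 to 0.96. Over the members alone the correlations ran from 0.029 to 0.915. They were lowest for the unstressed pairs (0.085 and 0.029) and the NaCl pairs (0.17 to 0.35), where the order of the members was poorly reproduced.

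In wild-type cells 30 min of H2O2 lowered every member that could be tested. All 79 passed limma's test at a false discovery rate of 0.01, with adjusted p between 7.97e-10 and 0.00796, against 34.1% of all 5212 genes tested that were called lower. The median tested member was at -2.16, a 4.47-fold lower level, and the tested members ranged from -2.85 to -0.59. RPL7A and RPL12B were measured on too few arrays to be tested. Without wild-type replicate 1, RPL41A (adjusted p = 0.0129) and RPL41B (0.0126) missed the threshold.

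The tested members that fell furthest belong to different places on the subunit. RPL12B (mean -2.91 on 5 arrays) and RPL7A (-2.79 on 5 arrays) were also low but not tested. RPL26B, whose product sits near the exit of the peptide tunnel, was at -3.87 on its lowest wild-type array, -2.95 at the median and -1.32 on its highest (fitted change -2.85, SE 0.30). Its paralog RPL26A was at -2.81 (SE 0.32), RPL27B at -2.73 (SE 0.27), and RPL12A, for a protein at the base of the stalk, at -2.71 (SE 0.27). RPL22A, for a surface protein that cells can live without, ran from -3.95 through a median of -2.81 to -1.33 (fitted change -2.78, SE 0.30). RPL16A, whose promoter the study probed for Rpd3p, ran from -3.68 through -2.67 to -1.06, with fitted changes of -2.67 (SE 0.29) for RPL16A and -2.63 (SE 0.24) for RPL16B. Every one of these genes was below 0 on each wild-type array where it was measured.

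The members that fell least also come from different places. RPL41A and RPL41B, which encode the smallest protein of the ribosome at a bridge between the subunits, had the weakest fitted changes, at -0.59 (SE 0.16, limma adjusted p = 0.00248) and -0.67 (SE 0.17). RPL41A ran from -1.14 through -0.68 to 0.05 on the 7 wild-type arrays that measured it. RPL4A, whose protein reaches into the exit tunnel, was at -0.86 (SE 0.23) and RPL4B at -1.11 (SE 0.19). RPL3, whose protein reaches towards the peptidyl transferase centre, was at -1.0 (SE 0.23), between -1.90 and 0.18 on 7 arrays. RPL10, for a protein that joins late in assembly beside the same centre, was at -1.04 (SE 0.15) and ran from -1.55 through -1.06 to -0.21. Thus RPL10 was below 0 on all 8 arrays, while RPL3, RPL4A, RPL4B and RPL41A each had an array above 0.

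The 5 stalk genes all fell. RPP0, the stalk base that carries the P1 and P2 proteins, was at -1.90 (SE 0.26), RPP1A at -1.84 (SE 0.25), RPP1B at -2.14 (SE 0.25), RPP2A at -2.09 (SE 0.32) and RPP2B at -1.51 (SE 0.19). RPP2A had its lowest wild-type value, -4.03, on replicate 6, and lay between -2.43 and -1.41 on the other arrays that measured it. RPP2B ran from -2.16 through -1.5 to -0.66.

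**Figure D1:**
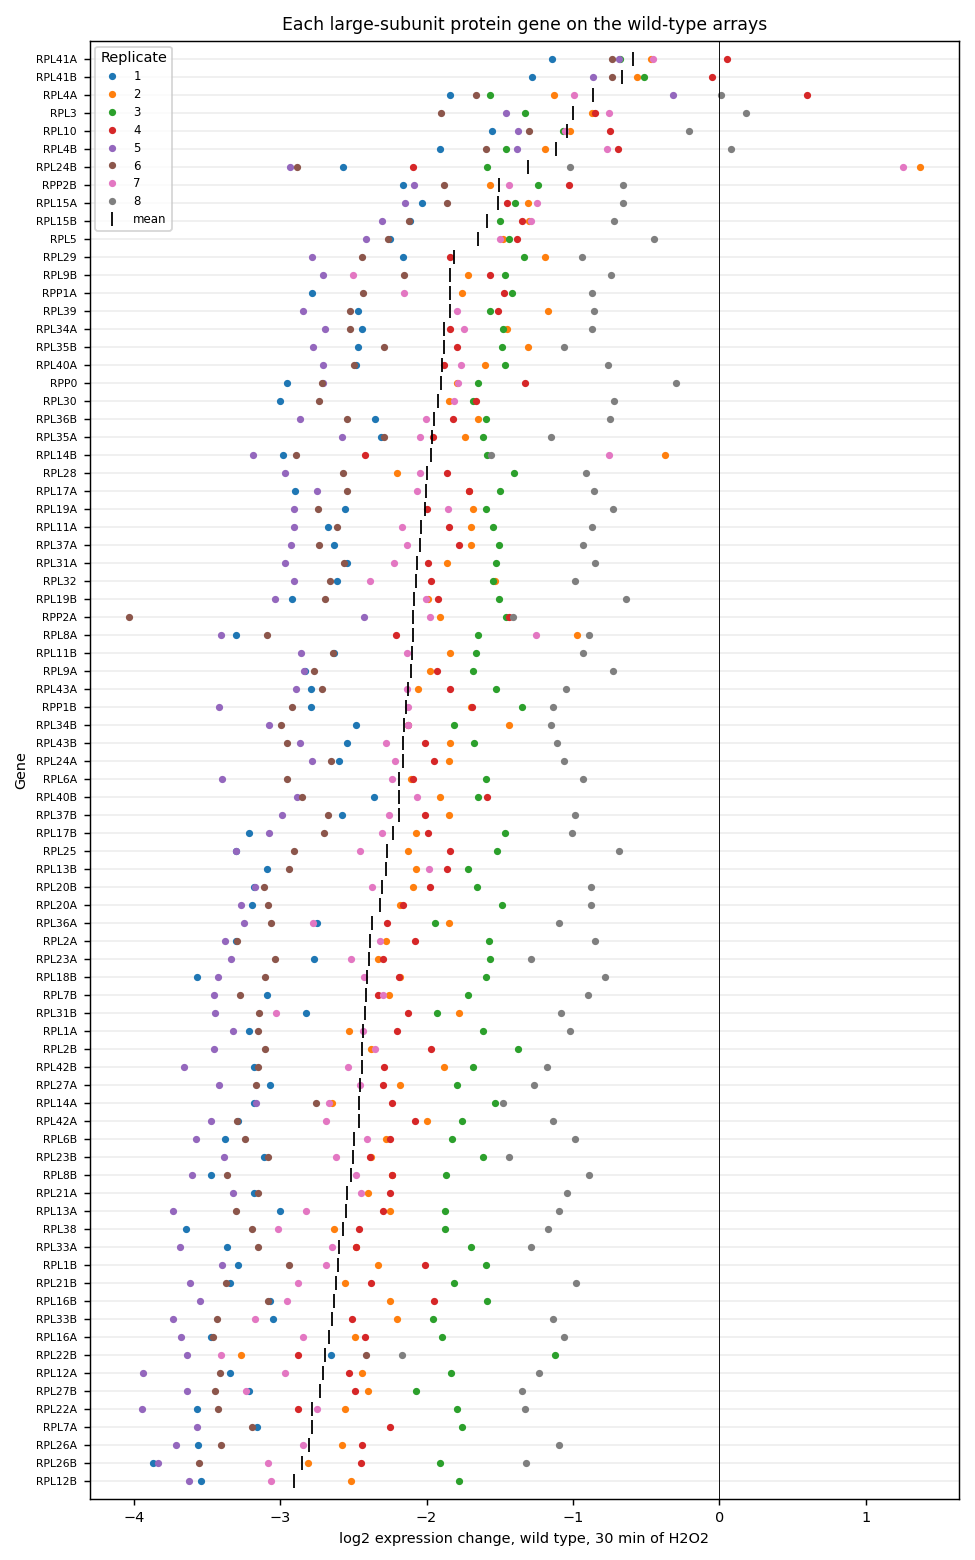
Log2 expression change of 80 of the 81 genes in wild-type cells after 30 min of H2O2, with a line for each gene, a coloured point for each replicate array and a tick for the mean. All means lie below 0, RPL26B is near the bottom at -2.85 and RPL41A at the top at -0.59, and only the points of RPL24B on replicates 2 and 7 exceed 1.

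The members varied less among themselves than the genes of the whole table did. The standard deviation over members on an array was 0.134 to 1.05 (median 0.423), against 0.363 to 1.44 (median 0.884) over all genes. Over the arrays, the Pearson correlation of a member with the median of the members on the same array had a median of 0.960 and was over 0.9 for 65 of the 81 genes. These correlations describe members that share their arrays, and each member is part of that median. The lowest belonged to RPL24B (0.506), RPP2A (0.618 over 72 arrays), RPL22B (0.670), RPL3 (0.677), RPL10 (0.71), RPL41B (0.712) and RPL41A (0.714). The widest spread was on the array of rpd3Δ cells with the RPD3 plasmid at 30 min of H2O2, where members lay between -3.84 and 2.36.

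A member's deviation, its log2 change minus the median of the members on the same array, showed which genes held back. On the wild-type arrays at 30 min of H2O2, 18 members lay above the median on every array that measured them and 19 below it. The 10 with a median deviation over 0.5 were RPL41A (1.82), RPL41B (1.79), RPL10 (1.23), RPL4B (1.18), RPL4A (1.16), RPL3 (1.14), RPP2B (0.80), RPL15A (0.74), RPL15B (0.71) and RPL5 (0.62). RPL5 carries the 5S rRNA into the subunit together with RPL11, and RPL15 is an early-binding core protein. In the other strains at 30 min of H2O2, 9 of these 10 genes again had a median deviation over 0.5 and no other member did, while RPL5 was at 0.48. In wild-type heat shock at 10 to 20 min (3 arrays without and 1 with DMSO) only 3 of the 10 did, RPL3 (0.71 on 2 arrays), RPL41A and RPL41B (1.48 each), among 14 of all 81 members.

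**Figure D2:**
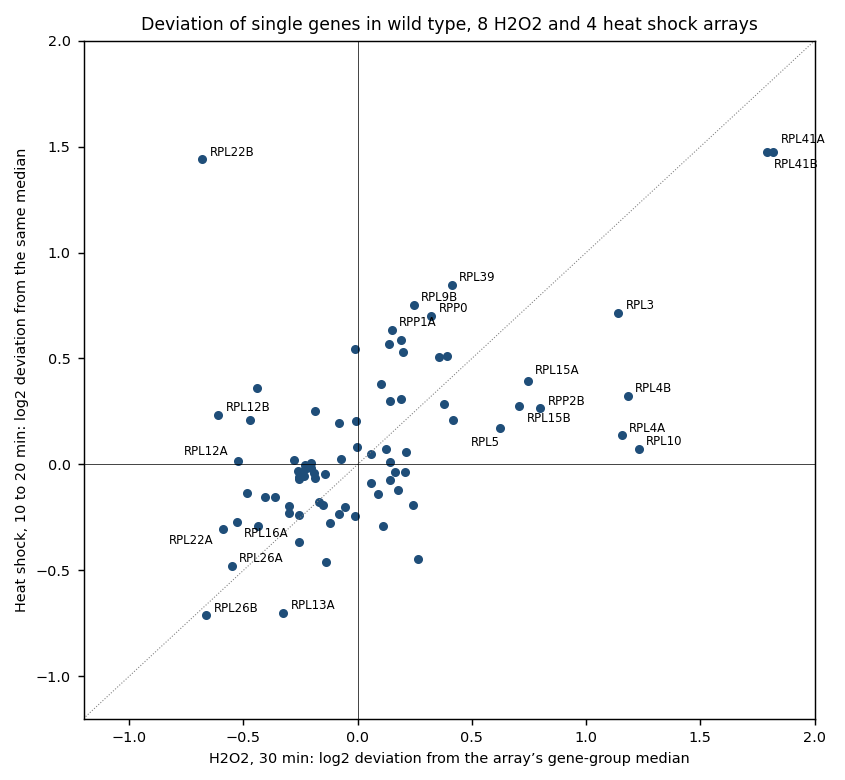
Median deviation of each gene from the median of the members on the same array (log2), over the 8 wild-type arrays at 30 min of H2O2 (horizontal axis) and over the 4 wild-type heat shock arrays at 10 to 20 min (vertical axis), with a dotted line where both are equal. RPL10 is at 1.23 in H2O2 and 0.07 in heat shock, RPL41A and RPL41B are high in both, and RPL22B is at -0.68 in H2O2 and 1.44 in heat shock.

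RPL10 shows this difference between stresses. In wild-type heat shock it was at -3.14 at 15 min in the first course, -2.17 and -2.69 at 10 and 20 min in the second and -2.55 at 15 min with DMSO, all lower than any of the 8 H2O2 arrays at 30 min (-1.55 to -0.21). A comparison of H2O2 with heat shock in wild-type cells, added after the values were seen, tested 56 members and called RPL10 alone, 1.74 higher in H2O2 (SE 0.33, limma adjusted p = 0.00513), against 7.14% of all genes called higher. The call was lost without the first heat shock course, at 1.39 with adjusted p = 0.105. The median member was 0.32 higher in H2O2, and 6 of the 56 had an unadjusted p under 0.05. The same comparison of H2O2 with NaCl at 30 min called 0 of 76 members with limma, against 7.65% of all genes called lower, although 68 of the 76 were lower in H2O2 (median -0.65) and 4 had an unadjusted p under 0.05. Leaving out an array gave up to 2 calls. In rpd3Δ cells RPL10 was at -1.46 at 15 min and at -1.22 and -1.45 at 10 and 20 min of heat shock.

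Over the H2O2 time course the members reached their lowest levels at different times in different strains. In rpd3Δ cells the median member was at -0.22, -1.0, -1.90, -2.30 and -2.22 after 10, 20, 30, 40 and 60 min. In pho23Δ cells it was at -0.19, -0.74, -1.74, -2.29 and -2.88. In rco1Δ cells it was at 0.39, -0.08, -0.92, -1.92 and -3.56, with 74 of 76 measured members above 0 at 10 min. In wild-type cells it was at -0.38, -1.52, -2.92, -3.14 and -2.07. The lowest value fell at 60 min for 73 of 74 pho23Δ genes and 75 of 75 rco1Δ genes measured at every time, and at 40 min for 47 of 67 rpd3Δ and 47 of 58 wild-type genes. The rpd3Δ cells lay above wild type at 20 min for 74 of 74 members, at 30 min for 68 of 68 and at 40 min for 66 of 66, with median differences of 0.45, 1.03 and 0.88. At 60 min the median difference was -0.18, with 22 members above and 38 below. The course held 1 array for each strain and time, and the members of 1 array are not replicates. At 10, 20, 40 and 60 min these differences have no replicate check. At 30 min the 8 wild-type and 3 rpd3Δ arrays, course arrays included, gave a median difference of only 0.09 with 0 members called. The difference of 1.03 in the course was therefore not reproduced over the replicates.

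**Figure D3:**
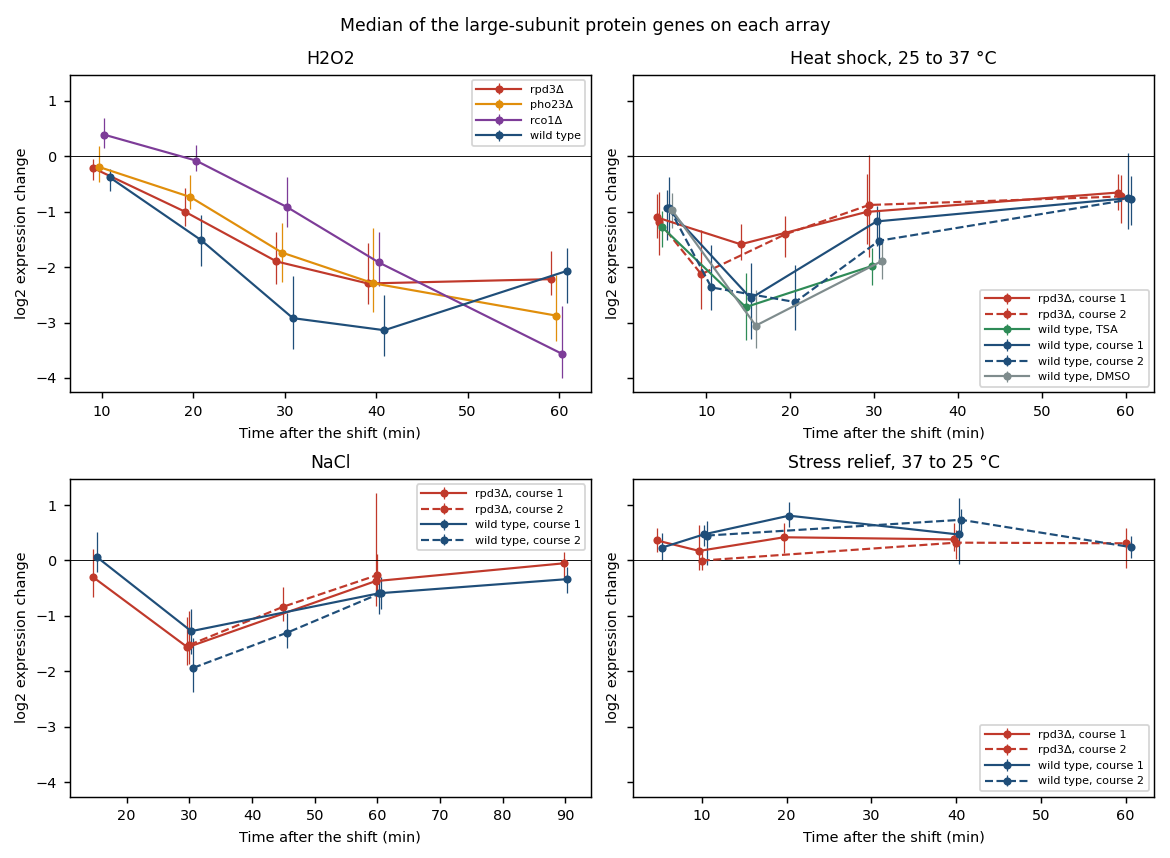
Median log2 expression change of the members on each array against time in minutes, with a panel for each stress, a line for each culture and vertical lines from the 10th to the 90th percentile of the members; points are shifted slightly sideways for legibility. In H2O2 the wild-type line turns up after -3.14 at 40 min, whereas the pho23Δ and rco1Δ lines reach -2.88 and -3.56 at 60 min.

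In heat shock and NaCl the lowest values came sooner, mostly at 10 to 30 min. In heat shock the first rpd3Δ course was at -1.10, -1.59, -1.01 and -0.66 and the first wild-type course at -0.93, -2.56, -1.18 and -0.76 after 5, 15, 30 and 60 min. The second rpd3Δ course was at -1.19, -2.13, -1.41, -0.88 and -0.73 and the second wild-type course at -0.94, -2.37, -2.63, -1.52 and -0.78 after 5, 10, 20, 30 and 60 min. In the second course the lowest value fell at 10 min for 40 of 52 rpd3Δ genes and at 20 min for 40 of 53 wild-type genes. The largest median differences between the strains were 0.93 at 15 min (77 members above 0, 3 below) and 1.25 at 20 min (57 above, 0 below), and both were measured once. The value at 20 min is from the second course, where the rpd3Δ reference is labelled 30 °C and that of wild type 25 °C. Strain and reference temperature cannot be told apart there. In NaCl, 69 of 72 and 76 of 80 genes of the 2 rpd3Δ courses, and 71 of 78 and 76 of 80 genes of the 2 wild-type courses, were lowest at 30 min.

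The tests on these courses used the mean of each culture over the times that both courses share, so the lowest heat shock times, which only 1 course holds, stayed out. In wild-type heat shock (5, 30 and 60 min), 29 of 30 tested members were called lower at a false discovery rate of 0.01, against 5.88% of all genes, with a median of -1.11, a 2.16-fold lower level. RPL27B, at -0.67 with limma adjusted p = 0.0456, missed the threshold. In wild-type NaCl (30 and 60 min), 59 of 75 were called lower, against 14.2% of all genes, with a median of -1.13 or 2.18-fold. Without either of the 2 wild-type courses, 0 members were called in heat shock and 0 in NaCl, where the course that was left was assumed to vary like the rpd3Δ courses. Between rpd3Δ and wild-type cells limma called 0 of 30 members in heat shock (0% of all genes, median difference 0.12, 3 with unadjusted p under 0.05) and 0 of 75 in NaCl (5.4% of all genes, median 0.23 with 67 above 0, 4 with unadjusted p under 0.05). The heat shock comparison includes the second course, whose reference temperatures differ between the strains.

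After relief from heat most members were above 0, which here stands for the level at 37 °C before the shift. The rpd3Δ medians were 0.36, 0.17, 0.42 and 0.38 and the wild-type medians 0.23, 0.47, 0.81 and 0.47 after 5, 10, 20 and 40 min of the first course. In the second course they were 0.00, 0.32 and 0.31 in rpd3Δ cells and 0.45, 0.73 and 0.24 in wild-type cells after 10, 40 and 60 min. With limma 0 of 61 wild-type members were called, and 0% of all genes, although 59 of the 61 were above 0 (median 0.53) and 44 had an unadjusted p under 0.05. Against wild type, 60 of 61 rpd3Δ members were lower, with a median difference of -0.32, and 0 were called (0% of all genes, 0 with unadjusted p under 0.05).

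The inhibitor and plasmid arrays were single measurements. With TSA the median member was at -1.27, -2.72 and -1.98 after 5, 15 and 30 min of heat shock, against -0.97, -3.06 and -1.89 with DMSO. The difference changed sign with time: 7 members were higher with TSA and 71 lower at 5 min, 65 higher and 15 lower at 15 min, and 20 higher and 59 lower at 30 min. In rpd3Δ cells at 20 min of heat shock the median was at -1.16 with rpd3H150:151A, -1.75 with the empty plasmid and -1.27 with RPD3. At 30 min of H2O2 it was at -1.94 with rpd3H150:151A, against -2.68 with RPD3, and 64 members were higher with the allele and 16 lower.

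RPL22B ran ahead of the other members in wild-type cells. After 5 min of heat shock it was at -2.01 with TSA, against -3.02 with DMSO, and at -1.09 and -1.91 in the 2 rpd3Δ courses, against -2.76 and -3.22 in the 2 wild-type courses. It was the lowest of all measured members on both wild-type arrays, on the DMSO array and on the TSA array, by deviations of -1.83, -2.28, -2.05 and -0.73. On the rpd3Δ arrays its deviations were 0.01 and -0.72, and 40 of 79 and 3 of 67 members lay further down. The second of these is the course with the 30 °C reference. By 30 min RPL22B was at -0.45 and 0.53 in rpd3Δ cells and at -0.08 and -0.65 in wild-type cells, well above the median member. RPL22A did not share this course: at 5 min it was at -0.87 and -1.43 in rpd3Δ cells and -0.88 and -1.27 in wild-type cells, close to the other members.

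The early fall of RPL22B in wild-type cells was also seen in the other stresses. At 10, 20, 30, 40 and 60 min of H2O2 it was at -0.59, -1.21, -1.51, -1.58 and -1.05 in rpd3Δ cells and at -1.01, -3.02, -2.65, -1.96 and -0.41 in wild-type cells. At 10 and 20 min the median member was at -0.22 and -1.0 in rpd3Δ cells and at -0.38 and -1.52 in wild-type cells. RPL22B thus lay below the median member in both strains at these 2 times, and further below it in wild type. At 15 min of NaCl it was at -0.28 in rpd3Δ cells, where the median member was at -0.31, and at -1.08 in wild-type cells, where the median member was at 0.06. These H2O2 and NaCl values come from 1 array for each strain and time. The tests did not call it: its rpd3Δ minus wild-type difference was 1.09 (SE 0.51, limma adjusted p = 0.131) at 30 min of H2O2, 0.71 (SE 0.27, adjusted p = 0.407) over the heat shock courses and 0.59 (SE 0.22, adjusted p = 0.194) in NaCl. RPL22B was singled out after its values were seen.

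At 30 min of H2O2 the replicate arrays of the mutants overlapped wild type. The median member averaged -2.13 ± 0.24 in rpd3Δ (SD, n = 3), -1.51 ± 0.50 in pho23Δ (n = 3), -2.03 ± 0.96 in rco1Δ (n = 3), -1.28 ± 0.98 in ume6Δ (n = 4), -1.89 ± 0.77 in msn2Δ msn4Δ (n = 3) and -2.22 ± 0.75 in wild type (n = 8). The 8 wild-type arrays alone ran from -3.17 to -0.98. The ume6Δ arrays were at -1.54, -1.43, -2.24 and 0.09, so 1 of them showed no fall of the median member.

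**Figure D4:**
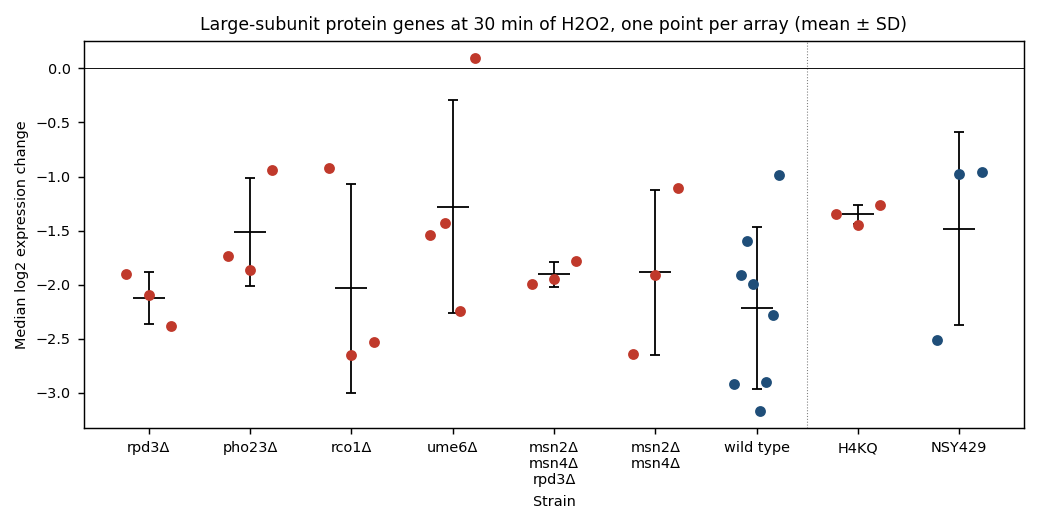
Median log2 expression change of the members after 30 min of H2O2, one point for each array, by strain, with the mean as a horizontal bar and the SD as whiskers; the dotted line sets off the histone strains. The wild-type arrays run from -3.17 to -0.98 and overlap the arrays of every mutant of that background.

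With limma 0 of 79 members differed between rpd3Δ and wild type (false discovery rate 0.05), against 24.3% of all 5195 genes tested, and 1 had an unadjusted p under 0.05. The median difference was 0.09, with 52 members above 0 and 27 below. RPL16A was at -2.20, -2.46 and -2.95 in rpd3Δ cells, inside the wild-type range, with a difference of 0.13 (SE 0.55). In pho23Δ cells all 79 members were above wild type (median difference 0.68), but 0 were called, against 18.5% of all genes, and 2 had an unadjusted p under 0.05. RPL16A differed there by 0.98 (SE 0.55). In rco1Δ cells 0 of 78 were called, against 0.443% of all genes, with a median of 0.16 and 0 with an unadjusted p under 0.05.

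In ume6Δ cells all 79 members were again above wild type, by a median of 0.92, and 45 had an unadjusted p under 0.05, but limma called 0, against 0.71% of all genes. The lowest adjusted p was 0.0627, for RPL23B (1.65, SE 0.43), which was at -1.84, -1.46, -0.03 and -0.09 in ume6Δ cells and between -3.39 and -1.44 in wild type. RPL16A differed by 1.13 (SE 0.49, adjusted p = 0.229). Without ume6Δ replicate 4 the median difference was 0.44. Without wild-type replicate 3, wild-type replicate 8 or ume6Δ replicate 1 the count of calls was 2, 4 and 4, and the share of all genes in these runs is not given here. These comparisons share their wild-type arrays.

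Loss of MSN2 and MSN4 left the members at 0.37 above wild type at the median, with 74 of 79 above 0, 0 called (4.79% of all genes) and 2 with an unadjusted p under 0.05. RPL40B, which makes its protein as a fusion with ubiquitin, was at -1.14, -0.21 and -1.18 in msn2Δ msn4Δ cells, above its wild-type range of -2.89 to -1.59 (difference 1.34, SE 0.43, limma adjusted p = 0.0659). The count was 2 without wild-type replicate 8 and 1 without msn2Δ msn4Δ replicate 1, and the share of all genes in these runs is not given here. With RPD3 removed as well, the median member was at -1.99, -1.95 and -1.78 in msn2Δ msn4Δ rpd3Δ cells and at -2.64, -1.91 and -1.11 in msn2Δ msn4Δ cells. With limma 0 of 78 members were called, against 9.84% of all genes, with a median difference of -0.03 and 0 with an unadjusted p under 0.05.

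In H4KQ cells the median member was at -1.34, -1.44 and -1.26, against -2.51, -0.98 and -0.96 in NSY429 cells. Of 80 members 0 were called with limma, against 0.0589% of all genes, with a median difference of 0.11 and 5 with an unadjusted p under 0.05. RPL22B had the lowest adjusted p, 0.0995, and differed by 1.40 (SE 0.23). It was at -0.75, -0.85 and -0.51 in H4KQ cells and at -1.88, -2.12 and -2.31 in NSY429 cells, with no overlap.

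Without stress the members were lower in rpd3Δ than in wild-type cells on all 3 arrays, with medians of -0.59, -0.35 and -0.88. Of 51 members measured on all 3, 50 were below 0, with a median of -0.56 or 1.47-fold lower, and 35 had an unadjusted p under 0.05. Only RPP2A was called (false discovery rate 0.05), against 0.972% of all genes called lower. RPP2A was at -0.91, -0.83 and -1.16 (mean -0.97, SE 0.14, limma adjusted p = 0.0385). The other stalk genes were at -0.95 for RPP2B (adjusted p = 0.0825), -0.89 for RPP1A and -0.40 for RPP0, RPP1B was measured on 2 of the 3 arrays (-0.59 and -0.38) and not tested, and RPL16A was at -0.27.

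Replicate 3, which carried the dyes the other way round and measured 53 members, set many of the larger unstressed values. RPL10 was at -0.40, -0.22 and -3.02 (mean -1.21), RPL18B at -0.66, -0.36 and -2.46 (-1.16), RPL23B at -0.62, -0.53 and -2.14 (-1.10) and RPL19B at -0.72, -0.39 and -2.15 (-1.09). At the other end RPL24B was at 1.33, 1.33 and -0.85 (0.60), RPL9B at -0.64, -0.41 and 0.77 (-0.10) and RPL33B at a mean of -0.12. Without replicate 3, 41 of 77 members were called, and 29.6% of all genes. With the dye orientation as a covariate 44 of 51 were called, and 44.3% of all genes. Without replicate 1 or replicate 2 the counts were 5 and 8, and RPP2A was then not among the calls. For these 2 runs the share of all genes called is not given here, so the counts cannot be read as particular to the members.

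The paralogs of a pair mostly moved together. Over 3345 differences between paralogs on the same array (A minus B), 87.1% were within 0.5 of 0, and the median correlation of paralogs over the arrays was 0.953. Near-identical paralogs may share signal on the probes, which was not tested. At 30 min of H2O2 in wild type, 9 of 32 tested pairs were called unequal (false discovery rate 0.05), against 25% of all 52 A and B pairs of the table. Those 52 pairs, of which 13 were called, include the 32, and the share among the members was close to that of all pairs. The A gene fell further in 4 pairs, among them RPL36 (difference -0.43, SE 0.11, limma adjusted p = 0.00875), RPP2 (-0.68, SE 0.22) and RPL16 (-0.26, SE 0.09), and the B gene fell further in 5, RPL31 (0.35, SE 0.10), RPL27 (0.27), RPL34 (0.27), RPL17 (0.23) and RPL6 (0.18). RPL36A was below RPL36B on all 8 arrays, by 0.20 to 0.77. The RPP2 call was lost without replicate 6, at -0.43 with adjusted p = 0.137, and 5 pairs were called then. Among the tested pairs, RPL42 (-0.02), RPL20 (-0.02) and RPL1 (-0.03) had the smallest differences.

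**Figure D5:**
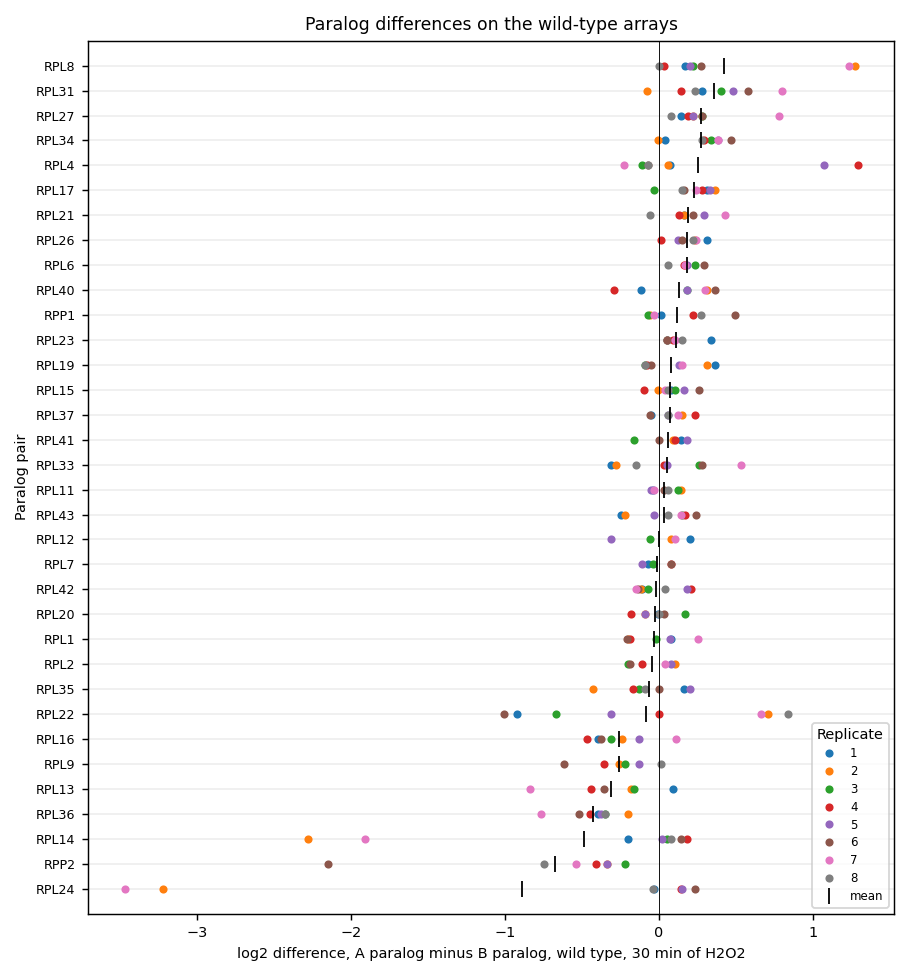
Difference between paralogs (A minus B, log2) in wild-type cells after 30 min of H2O2 for 34 of the 35 pairs, with a coloured point for each replicate array and a tick for the mean. Most points lie within 0.5 of 0, whereas RPL24, RPL14 and RPL8 have replicates 2 and 7 far from the others, and RPP2 has replicate 6.

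Between rpd3Δ and wild type limma called 0 of 30 pairs at 30 min of H2O2 (0% of all pairs), and 5 had an unadjusted p under 0.05, among them RPL22 (-1.07), RPL8 (0.83) and RPL36 (0.60). In unstressed cells 0 of 14 pairs were called (0% of all pairs, 0 with an unadjusted p under 0.05).

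RPL24 was the least alike pair, with a correlation of 0.545, and its difference in wild type (-0.89, SE 0.46) had an adjusted p of 0.137. RPL24B, for a protein that bridges to the small subunit, was at 1.37 and 1.25 on wild-type replicates 2 and 7, where RPL24A was at -1.85 and -2.22. On the other replicates RPL24B lay between -2.94 and -1.02. RPL24A lay over 1.5 below RPL24B on 17 of the 106 arrays that measured both. These were unstressed, heat shock, H2O2 and NaCl arrays of several strains. Both dye orientations occurred among them, but most had the stressed or rpd3Δ sample in the 550 nm dye, and a link with the dye was not tested. None was a relief array: there RPL24A lay 0.04 to 2.35 above RPL24B. On wild-type replicates 2 and 7 RPL14B (-0.37 and -0.76) was likewise above RPL14A (-2.65 and -2.67), and RPL8A (-0.97 and -1.26) above RPL8B (-2.24 and -2.49). Over the arrays the RPL24 difference had a correlation of 0.679 with the RPL14 difference (104 arrays) and of -0.639 with the RPL8 difference (101 arrays). These correlations are a description over arrays that share strains and treatments, and what the arrays have in common was not tested. In all, 30 cases had paralogs moving in opposite directions by more than 0.5 each, of which RPL24 made up 17, RPL9 4 and RPL37 2, with 1 each for RPL4, RPL7, RPL8, RPL12, RPL14, RPL22 and RPP2. The RPP2 case was the array of rpd3Δ cells with the RPD3 plasmid at 30 min of H2O2, with RPP2A at 2.36 and RPP2B at -1.40.

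The RPL9 difference had opposite signs in heat shock and in relief from it. In wild-type heat shock at 10 to 20 min RPL9A lay below RPL9B, with differences between -1.25 and -0.74 (median -0.86). In relief from heat RPL9A lay above RPL9B on 10 of the 10 arrays that measured both.

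Genes with related roles set the members in context. The 52 tested small-subunit genes were all called lower in wild type at 30 min of H2O2, with a median of -2.29, beside -2.16 for the members, and over the arrays the medians of the large-subunit and small-subunit genes were within 0.2 of each other on 105 of 109. The 34 genes for the large subunit of the mitochondrial ribosome had a median of 0.43, with 21 called higher, against 34.3% of all genes called higher, and 2 called lower. Of 7 regulators of ribosomal protein genes, 6 were tested and 5 were called lower in wild type, against 34.1% of all genes called lower. Among the 5 were the activator IFH1 (-2.05, SE 0.24) and RAP1 (-1.0, SE 0.15), which binds these promoters.

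Of 5 chaperones that escort single large-subunit proteins to the nucleus or the assembling subunit, 4 were tested. SYO1, for Rpl5p and Rpl11p, RRB1, for Rpl3p, BCP1, for Rpl23p, and SQT1, for Rpl10p, all fell in wild type at 30 min of H2O2, by a median of 2.19 on the log2 scale. The rpd3Δ minus wild-type differences were 2.07 (SE 0.41) for SYO1, 1.87 (SE 0.44) for RRB1, 1.55 (SE 0.35) for BCP1 and 1.48 (SE 0.26) for SQT1. All 4 were called higher, with limma adjusted p between 0.000221 and 0.00327, against 14.2% of all genes called higher. In pho23Δ all 4 were called higher too, by 1.30 to 1.65, against 9.87% of all genes. In NaCl SYO1 (2.19) and SQT1 (1.48) were called higher in rpd3Δ, 2 of 3 tested, against 3.15% of all genes. The difference between the chaperones and the members was not tested. ACL4, the chaperone of Rpl4p, was measured on too few arrays to be tested. Of the regulators, FHL1 was 0.74 higher and HMO1 0.58 lower in rpd3Δ. These 2 are given as estimates only, without their test results, and the rpd3Δ differences of the other regulators are not given here.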

How the data were processed

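The values are log2 ratios of the 2 channels of each array, deposited by the authors as 1 table of 6297 open reading frames and 109 columns, with array means near 0. Their normalization is not given in the sources used here. The direction of the ratios was taken from the labels and from arrays with opposite dyes. Of the frames, 5832 matched an entry of the name table.

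Fits were made with limma 3.58.1 (R 4.3.3) on all genes, with Benjamini-Hochberg adjustment, at a false discovery rate of 0.01 for wild-type changes and 0.05 for strains and pairs. A gene was tested when measured on 80% of the arrays of a fit, or in all cultures of the time courses and on all unstressed arrays. The strains at 30 min of H2O2 shared one fit, in which the time course array is replicate 1. Time courses were tested on culture means over shared times. The paralog tests used the A minus B difference on each array. Tables and figures used Python 3.11.15, numpy 2.4.6, pandas 2.3.3 and matplotlib 3.10.9. The fits were tested on simulated data.

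The members and lists were chosen with earlier results of these data known. Named genes were RPL16A, RPL16B and the stalk genes. Among tested members, the 5 lowest and 5 highest in wild type at 30 min of H2O2 were named, with the 5 lowest and 3 highest unstressed. Also named were the tested pairs with the 5 largest and 3 smallest differences, any member called and any pair moving in opposite directions. The values of 1 member and its pair are not reported here, though they are in the counts. Others were named after their values were seen, and the comparisons of H2O2 with heat shock and NaCl were also added then. The labels do not say that replicates are separate cultures, so p-values measure the spread between arrays. Titles were followed where a description gives another replicate number (the second wild-type heat shock course, the first rpd3Δ relief course and 2 pho23Δ arrays). Equal replicate numbers did not pair the arrays (correlations of 22 pairs between -0.388 and 0.451, with 6 over 0.1). Alternatives were centring, scaling, a looser filter, dye orientation, a replicate block, other thresholds and leaving out arrays. No promoter sequence was searched. The number of arrays limits the precision.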

Additional observations from a re-analysis of the deposited data

Results flagged for a closer look

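In groups of 4 to 10 arrays, 62 sets of values were examined for an array that stands apart from the rest, and 6 were marked. Chance marks about 1 in 20 such sets. In wild type at 30 min of H2O2, RPP2A was at -4.03 on replicate 6, and the RPP2 difference (A minus B) on that array was -2.15. In ume6Δ, RPL10 was at 0.42 on replicate 4 and between -0.88 and -0.76 on the others. RPP1A was at 0.45 on the same array and between -1.64 and -1.33 on the others. The median member on replicate 4 was itself at 0.09, so these values go with a shift of the whole array. The deviation of RPL10 there, 0.33, was its lowest in ume6Δ. In ume6Δ the RPL14 difference was -4.66 on replicate 3, and the RPL42 difference was -0.48 on replicate 1.

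In 9 cases over all members both rpd3Δ arrays of a stress and time lay on one side of 0 and both wild-type arrays on the other. These differences were not tested, and the share of all genes that did the same was not counted. At 60 min of NaCl RPL26B averaged 0.80 in rpd3Δ (1.41 and 0.19), with -0.38 and -0.60 in wild type, and RPL27B averaged 0.97 in rpd3Δ (1.5 and 0.44), with -0.13 on both wild-type arrays. RPL40B averaged 0.65 in rpd3Δ and -0.47 in wild type at the same time. For all of these the higher rpd3Δ value came from the first course, where the median member was at -0.37. Other members were also high on that array, among them RPL25 (2.47), RPL20B (1.41), RPL4B (1.35) and RPP0 (1.32). At 10 min of relief the median member of the rpd3Δ arrays was itself near 0, at 0.17 and -0.001. At 10 min of relief from heat RPL4A averaged -0.069 in rpd3Δ (-0.06 and -0.08), with 0.66 and 0.43 in wild type. The other cases at that time were RPL20B (-0.15 in rpd3Δ and 0.52 in wild type), RPL21B (-0.17 and 0.33), RPL22B (-0.26 and 0.35), RPL39 (-0.034 and 0.51) and RPL42A (-0.15 and 0.42).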

How the results depend on the processing

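No result reversed under any alternative run. Of the counts of called members or pairs, 213 alternatives stayed within 1.5 times the value reported and 33 did not, and of the values of single named genes and pairs 339 kept their call, 20 gained one and 10 lost it. The unstressed count of members (1) was 0 with the looser filter or at a false discovery rate of 0.01, 2 with scaled arrays, 44 with the dye covariate and 5 to 41 when an array was left out. The count of unequal pairs in wild type (9) was 3 with the dye covariate, 5 with scaled arrays, 1 at 0.01 and 5 to 9 when an array was left out. The unstressed count of pairs (0) was 5 with the dye covariate and 0 to 1 when an array was left out. Scaled arrays gave 3 members in rpd3Δ against wild type at 30 min of H2O2 (0), 6 in wild-type NaCl (59) and 11 in H2O2 against heat shock (1). The last count was 3 with the DMSO culture added and 0 to 2 when an array was left out, and that of H2O2 against NaCl (0) was 0 to 2. Arrays as replicates gave 52 members in wild-type heat shock (29) and 1 in relief (0). Leaving out an array gave 0 to 4 in ume6Δ (0), 0 to 2 in msn2Δ msn4Δ (0), and 0 to 0 in wild-type heat shock and in NaCl. With a replicate block 0 members were called in each comparison of strains, with medians of 0.07 in rpd3Δ and 0.64 in pho23Δ at 30 min of H2O2, and no other call changed. Without wild-type replicate 1, RPL41A and RPL41B missed the threshold of 0.01 at adjusted p = 0.0129 and 0.0126. The cause was not tested in any of these. Shares of all genes called are given above for the unstressed runs without replicate 3 and with the dye covariate. For the other alternatives they are not given, so those counts cannot be read as particular to the members.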
